A study of Mus musculus with 16 samples.

Results

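Transitional B-cells are the immature B-cells that have just entered the spleen. They pass from a first stage (T1) to a second stage (T2), from which marginal zone (MZ) and follicular (FO) B-cells arise. The comparison described here took the 8 RNA-Seq libraries of T1 and T2 B-cells among 16 libraries of splenic B-cells, and set the 4 libraries of miR-146a-deficient mice against the 4 of wild-type (WT) mice, with the stage as a covariate. There were 2 libraries each of WT T1, WT T2, KO T1 and KO T2. KO stands for Mir146a-/- mice, which lack the microRNA in every tissue, so that T cells, stroma and myeloid cells around the B-cells lacked it as well. Both genotypes are labelled C57BL/6 and no treatment is given. WT mice were bought from a vendor, whereas the KO line was generated separately, so that the source of the mice and the genotype cannot be told apart. Spleens of several mice were pooled for each sort. A T1 and a T2 library of the same genotype and number may come from the same pool, in which case they are not independent and the p-values below are too small. The labels give no ages for these mice.

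MicroRNAs pair through their seed, bases 2 to 8, with sites in the 3′ untranslated region (UTR) of mRNAs, and reduce the stability or translation of those mRNAs. miR-146a is induced by NFκB and acts as a brake on it, since among its best known targets are Traf6 and Irak1, which carry the signal of Toll-like receptors to NFκB. Relb, an NFκB subunit, and Numb, an inhibitor of Notch signaling, have also been described as targets. Transitional B-cells depend on B-cell receptor and BAFF signals to survive, and signals through Notch2 direct part of them to the MZ fate. The question of the comparison was which mRNAs differ between the genotypes before that choice is made.

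The mature microRNA and the sites of 5 genes listed as described or predicted targets show the letters that can pair. The first pair of sequences are those of miR-146a and of its relative miR-146b, which is encoded on another chromosome and was not deleted. They are credited to RefSeq (GRCm38.p6), are written 5′ to 3′, and carry the seed in capitals.
miR-146a-5p: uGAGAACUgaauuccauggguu
miR-146b-5p: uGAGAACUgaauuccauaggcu
Both share the seed. The sites below are from 3′ UTRs of GENCODE M21 transcripts (GRCm38), are written in the direction of the mRNA, and carry the site in capitals. An 8mer is the match to bases 2 to 8 followed by an A, and the 7mer of Notch2 is the match to bases 2 to 7 followed by an A. Traf6, Irak1, Irak2 and Numb are shown with an 8mer.
Traf6 (chr2:101697948-101697977, plus strand): ctctggtgttgAGTTCTCAtttagttgact
Irak1 (chrX:74015366-74015395, minus strand): tcatgcttggaAGTTCTCAtagtgtgcaaa
Irak2 (chr6:113694255-113694284, plus strand): gtgtctccgcaAGTTCTCAagttcaggact
Numb (chr12:83794802-83794831, minus strand): atattttaaatAGTTCTCAatattaaaaag
Notch2 (chr3:98148665-98148693, plus strand): acacacagtagGTTCTCAgtgaagacgtg
Traf6 holds 4 such 8mers in all, Irak1 2, and Irak2, Numb, Smad4 and Card10 1 each. A match in sequence is a description, was not weighed by conservation, and does not show that a gene is repressed. This holds for Notch2 in particular, whose place in the list rests on a predicted site. The paper reports that miR-146a did not repress a luciferase reporter with part of the Notch2 3′ UTR. It reports that a reporter with Numb 3′ UTR sequence was repressed, and that mutation of the site ended this.

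The libraries held 9003343 to 14443131 reads assigned to genes, and values are reads scaled to exon length and library size (RPKM). The targeted gene, Mir146 (chromosome 11 from 43374397 to 43374461, minus strand), had 0 reads in all 8 libraries, so that it cannot check their genotype labels. Of the mature libraries, WT FO was at 0.583 and 0.656 RPKM and the others were at 0. Mir146b was at 0 as well. Reads at these genes do not measure the mature microRNAs. By RT-qPCR, the paper reports miR-146a in all the WT subsets it measured, T1 and T2 included, with the highest level in MZ. The cells carried the mRNAs of their labels. The sort marker Cd93 was at 26.6 to 36.4 RPKM in T1 and 6.66 to 15.4 in T2, and the sort markers Fcer2a (30.2 to 56.4 in T1 and 604 to 712 in T2) and Cr2 (19.3 to 29.4 and 140 to 170) went the other way. Of 5 listed sex-linked genes, 3 were at 0 in all 8 libraries. These were Ddx3y, Uty and Kdm5d, which lie on the Y chromosome. The KO replicate 1 libraries stood apart from the others in stress-induced genes, and the T1 replicate 2 libraries of both genotypes in immunoglobulin genes. KO T2 replicate 1 lay between the levels of the other KO replicates in the 2 genes that told these apart, Gm11942 and Tpm3-rs7. Whether it holds cells of both pools was not tested, and this bears on each value given with and without the KO replicate 1 libraries. In bulk samples such as these, fewer cells of a type and less RNA per cell cannot be told apart.

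Of 11872 genes tested across the 8 libraries, 2 were called (0.0168%), that is, had an adjusted p under 0.05 and a log2 difference beyond 1 in size. One fell and the other rose in KO, and both lie on chromosome 11, the chromosome of Mir146. Without the fold criterion the same count of 2 was obtained. An unadjusted p under 0.05 was found for 387 genes (3.26%), of which 235 were higher in KO and 152 lower. The median log2 difference (KO minus WT) over all tested genes was 0.01, with 53.2% above 0. The median standard error (SE) of a log2 difference was 0.13, and a missing call does not show that a gene was equal in the genotypes.

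9930111J21Rik2 (ENSMUSG00000069892), a protein-coding gene on chromosome 11 (49015874 to 49051242, 5.64 Mb from Mir146) among interferon-inducible GTPase genes such as Tgtp1, was nearly lost in KO. Its RPKM was 24.7 and 27.3 in the WT T1 libraries and 36.2 and 36.9 in the WT T2 libraries. It came to 0.383 and 0.187 in KO T1 and 0.344 and 0.294 in KO T2. In recovered reads these are 2173 to 3530 reads per WT library and 19 to 30 per KO library. The groups were far apart, with a log2 difference of -5.29 (SE 0.13, 95% confidence interval -5.59 to -4.99, adjusted p = 2.44e-06 from limma). The difference was -5.09 in T1 (adjusted p = 0.000162 from limma) and -5.50 in T2 (adjusted p = 9.47e-05 from limma), and it was the 1 gene called in each stage (0.00842% of tested genes, with and without the fold criterion). Without the KO replicate 1 libraries it was -5.41, and it was called under each of the 25 settings run. Its neighbour and paralog 9930111J21Rik1 was at 14.9 to 18.3 RPKM in WT and 15.8 to 21.4 in KO (log2 difference 0.23, adjusted p = 1.00 from limma). Reads that fit both copies were not kept, since the authors used uniquely aligned reads, so that the level of either may be understated.

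Lyrm7 (ENSMUSG00000020268, chromosome 11 from 54826866 to 54860916, 11.5 Mb from Mir146) is needed for the assembly of complex III of the mitochondrial respiratory chain. It was at 0.665 and 1.18 RPKM in WT T1 and 0.926 and 1.18 in T2 of WT, against 5.80 and 4.52 in KO T1 and 6.69 and 4.85 in KO T2. All 4 KO libraries lay above all 4 WT libraries. The log2 difference was 2.00 (SE 0.17, 95% confidence interval 1.60 to 2.41, adjusted p = 0.0216 from limma), a 4.01-fold higher level on the log2(RPKM + 0.5) scale. It was 2.01 in T1 and 2.00 in T2, and passed in neither stage alone. This call was less firm than that of 9930111J21Rik2. The Lyrm7 call held in 10 of 25 settings and was lost when any library other than WT T1 replicate 2 was left out, and without the KO replicate 1 libraries the difference was 1.82 (adjusted p = 0.435 from limma). The difference itself stayed between 1.70 and 2.44 throughout.

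**Figure D1:**
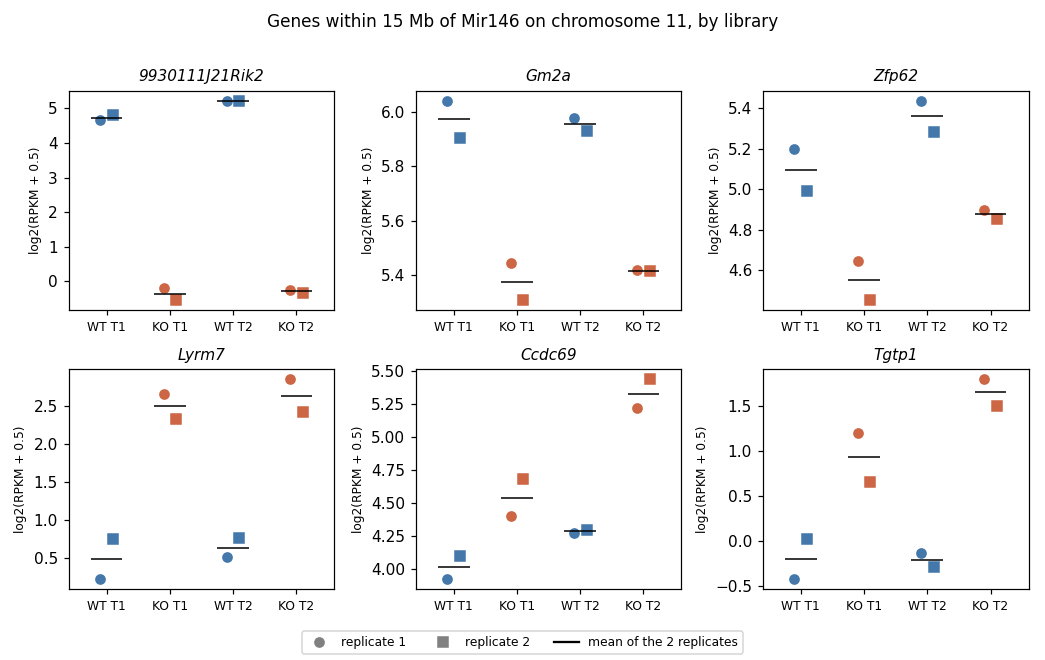
Level of 6 genes within 15 Mb of Mir146 in each transitional library, as log2(RPKM + 0.5) on the vertical axis (scaled per gene), with WT in blue, KO in orange, circles for replicate 1, squares for replicate 2 and a line at the mean of the 2. The 2 KO libraries of a stage lie on 1 side of the 2 WT libraries in all 6 panels, below them for 9930111J21Rik2, Gm2a and Zfp62 and above them for Lyrm7, Ccdc69 and Tgtp1.

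The genes with the smallest p-values lay near the targeted locus. Of the 12 smallest p-values, 8 belonged to genes within 15 Mb of Mir146, and of the 30 smallest, 10 did. Among the 152 tested genes in that window, 26 (17.1%) had an unadjusted p under 0.05, 13 higher and 13 lower in KO. The share was 37 of 868 (4.26%) on the rest of chromosome 11 and 316 of 10692 (2.96%) on other chromosomes. Libraries of the 2 genotypes did not overlap in either stage, in the same direction, for 13 higher and 14 lower genes of the window (17.8%), against 5.99% on the rest of the chromosome and 3.79% elsewhere, and over all tested genes 2.48% were higher and 1.66% lower in this way. Besides the 2 called genes, none of the window passed the test with the 8 libraries.

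In the window 86 of 152 genes had a log2 difference below 0, and Gm2a, Zfp62 and G3bp1 were among the 13 lower genes at an unadjusted p under 0.05. Gm2a, the activator protein of ganglioside breakdown in lysosomes, was at 65.4 and 59.4 RPKM in WT T1, 62.5 and 60.5 in T2 of WT, 43.0 and 39.1 in KO T1, and 42.3 and 42.1 in KO T2. Its groups did not overlap and its spread was small (log2 difference -0.57, SE 0.07, adjusted p = 0.118 from limma). Zfp62, a zinc finger gene, was at 31.4 to 42.9 RPKM in WT and 21.4 to 29.3 in KO (-0.52). G3bp1, which encodes a core protein of stress granules, was at 26.9 to 35.7 in WT and 21.6 to 29.9 in KO (-0.32), so that its genotypes separated within each stage but overlapped across stages.

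Genes of the window above WT included Ccdc69, Anxa6 and a group of interferon-inducible genes. Ccdc69 was at 14.7 and 16.7 RPKM in WT T1 and 18.9 and 19.2 in T2 of WT, against 20.6 and 25.1 in KO T1 and 36.8 and 42.8 in KO T2 (log2 difference 0.78, SE 0.13, adjusted p = 0.477 from limma). Its difference was 0.53 in T1 and 1.04 in T2, and the difference between the stages did not pass. Anxa6, a calcium-dependent membrane-binding protein, was at 84.9 to 107 RPKM in WT and 119 to 168 in KO (0.49). Tgtp1, an interferon-inducible GTPase, was low in all libraries, at 0.249, 0.516, 0.416 and 0.321 RPKM in WT and 1.79, 1.08, 2.96 and 2.33 in KO (1.49, SE 0.25, adjusted p = 0.522 from limma). Its close copy Tgtp2, whose reads may be confused with it, was at 1.54 to 5.48 in WT and 1.48 to 3.20 in KO, with overlapping groups (-0.26). Irgm1, another such GTPase, was at 17.5 to 21.2 in WT and 23.2 to 27.3 in KO (0.42), and Psme2b-ps, a relative of a proteasome activator gene, at 23.4 to 28.1 and 31.4 to 37.9 (0.41). Tnip1, an inhibitor of NFκB, 11.5 Mb from Mir146, was at 17.5 to 23.2 in WT and 21.8 to 32.8 in KO (0.36).

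A fit in which all 16 libraries shared 1 estimate of the spread raised the count for the transitional difference from 2 to 7 called genes (0.059%), and to 9 (0.0758%) without the fold criterion. An unadjusted p under 0.05 was found for 5.05%, 3.04% higher and 2.0% lower in KO. Of the 9 genes, 6 lie within 15 Mb of Mir146. They are 9930111J21Rik2, Lyrm7, Tgtp1 (adjusted p = 0.0300 from limma), Gm12233 (0.00554), Gm2a (0.00554) and Ccdc69 (0.00449). Gm12233, a noncoding gene with 9 to 50 reads per library, was at 2.45 and 2.49 RPKM in WT T1, 5.55 and 7.06 in T2 of WT, and 1.37 to 1.86 in KO. The other 3 were Ighv5-12, Trbd2 and Gm23878, the last with at most 4 reads in any library. The differences are the same as with 8 libraries, and the mature libraries changed their spread. This fit took the 16 libraries as independent. Same-numbered libraries of a genotype may share a pool of mice, in which case its p-values are too small. The SE went from 0.28 to 0.13 for Gm12233 and from 0.13 to 0.08 for Ccdc69, and for Zfp62, which did not pass, from 0.08 to 0.11.

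**Figure D2:**
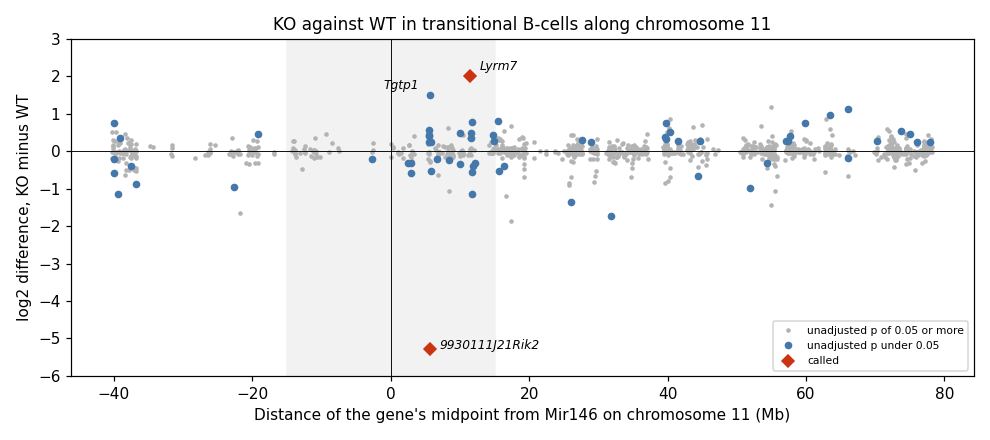
Log2 difference (KO minus WT, 8 transitional libraries) of the tested genes of chromosome 11 against the distance of the gene's midpoint from Mir146 in Mb, with the 15 Mb window shaded. Both called genes (diamonds) and 26 genes with an unadjusted p under 0.05 (the called genes included) fall in the window of 152 genes, mostly on 1 side of Mir146, and 37 such genes fall among the 868 outside it.

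In the window, 133 tested genes have an annotated 3′ UTR, and 33 of these (24.8%) carry letters that pair with the seed of miR-146a, counted as AGTTCTCA, AGTTCTC or GTTCTCA in the strand of the mRNA. Of the 25 among them with an unadjusted p under 0.05, 6 (24.0%) hold one. Over all tested genes with a 3′ UTR the share was 21.9%. 9930111J21Rik2, Lyrm7, Ccdc69, Tgtp1, Zfp62 and Anxa6 hold no match, and Gm2a, which was lower in KO, holds 2 of the 7mers.

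None of the listed targets of miR-146a passed the test. Of 12 listed targets, 11 passed the filter on low values, and 0 were called. By the log2 difference 4 were above 0 and 7 below, with a median of -0.03 (0.01 over all tested genes). The count above 0 was 3 and the median -0.05 without the KO replicate 1 libraries. For the adaptor and kinases of Toll-like receptor signaling the intervals were narrow. Traf6 was at 16.4 and 12.3 RPKM in WT T1, 13.5 and 12.2 in T2 of WT, 14.7 and 12.5 in KO T1, and 12.8 and 13.3 in KO T2. Its log2 difference was -0.02 (95% confidence interval -0.27 to 0.23), with KO libraries inside the range of WT libraries. Irak1 was at 31.9 to 41.2 RPKM in WT and 33.1 to 43.7 in KO (0.05, interval -0.10 to 0.21). Irak2, a related kinase, was at 19.2 to 29.2 and 17.1 to 30.9 (-0.08, interval -0.31 to 0.15).

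The transcription factor targets and the receptors among them did not pass either, and Egr1 and Cxcr4 among them moved with the KO replicate 1 libraries. Relb was at 17.5 to 23.6 RPKM in WT and 16.5 to 24.0 in KO (-0.13, interval -0.39 to 0.13), and Smad4, the common mediator of TGFβ signaling, at 23.2 to 27.5 and 21.5 to 28.8 (-0.03). The death receptor Fas was at 2.40 to 4.36 in WT and 2.54 to 3.19 in KO (-0.14). Egr1 and the chemokine receptor Cxcr4, both induced early upon stimulation, gave the lowest differences of the list. Egr1 was at 444, 188, 283 and 155 RPKM in WT, and at 14.9 and 61.2 in the KO replicate 1 libraries against 236 and 96.3 in the KO replicate 2 libraries (-1.85, interval -3.66 to -0.04, adjusted p = 1.00 from limma). Egr1 was at -0.70 without the KO replicate 1 libraries. Cxcr4 went from -0.60 to -0.13. Card10 was below the filter, with at most 12 reads in any library.

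**Figure D3:**
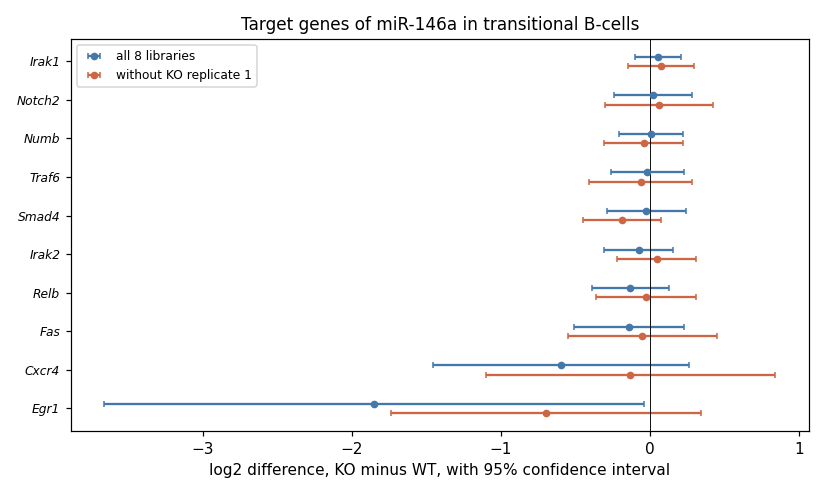
Log2 difference (KO minus WT) of 10 of the 11 tested genes listed as described or predicted targets of miR-146a, with its 95% confidence interval. Values are from all 8 libraries (blue) and without the KO replicate 1 libraries (orange). All intervals but that of Egr1 with 8 libraries cross 0, and the intervals of Traf6, Irak1, Irak2, Numb and Notch2 with 8 libraries stay within 0.31 of 0.

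Genes with and without a seed match had like medians with the 8 libraries. The 2166 tested genes with a match in the 3′ UTR had a median log2 difference of 0.01, with 1143 above 0, and the 502 with an 8mer had a median of 0.01, with 271 above 0. The 7733 genes with a 3′ UTR and no match had a median of 0.01 as well. Of the 2166 genes with a match, 33 were higher and 22 lower at an unadjusted p under 0.05. Of the 7733 without a match, 131 were higher and 78 lower, and over all tested genes 1.98% and 1.28% were. Without the KO replicate 1 libraries the medians were -0.04 for genes with a match, -0.06 for those with an 8mer and 0.01 for those without. In that fit 177 of 501 genes with an 8mer were above 0, against 4133 of 7826 without a match and 50.4% of all tested genes.

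Numb and Notch2 bear on the Notch pathway, in which ligand binding releases the intracellular part of the receptor to act with Rbpj on Hes and Deltex genes. Numb was at 6.19 and 6.81 RPKM in WT T1, 7.03 and 7.43 in T2 of WT, 7.40 and 5.96 in KO T1, and 6.86 and 7.37 in KO T2. Its libraries were interleaved, and the log2 difference was 0.00 (interval -0.21 to 0.22). This is mRNA, whereas the paper reports more Numb protein in KO T2 B-cells by intracellular staining. Notch2, the receptor, was at 42.9 and 32.7 RPKM in WT T1, 58.1 and 66.9 in T2 of WT, 38.2 and 35.1 in KO T1, and 59.1 and 72.1 in KO T2, a log2 difference of 0.02 (interval -0.24 to 0.28). The Notch target Hes1 was at 23.1 to 35.3 in WT and 22.4 to 30.9 in KO (-0.19, interval -0.56 to 0.18). Hes5 was at 0.269 to 1.21 and 0.794 to 1.32 (0.19). Dtx1, a Deltex gene, was at 14.6 to 21.6 and 14.3 to 30.4 (0.20), and Dtx4 at 0.263 to 1.1 and 0.606 to 1.1 (0.21). Genes of the cleavage of the receptor were close to 0 as well, with Adam10 at 36.7 to 46.4 in WT and 36.2 to 53.6 in KO (0.05) and Ncstn at 28.4 to 31.7 and 28.8 to 36.7 (0.09). Rbpj was at 3.84 to 5.54 in WT and 3.20 to 4.71 in KO (-0.08). Of the fringe genes, which modify the receptor with sugars, Rfng was above WT in each stage, at 7.72 to 9.53 in WT and 8.50 to 10.4 in KO (0.13), while Lfng (0.02) and Mfng (0.04) overlapped. Of 21 tested genes of the pathway, 0 were called and 0 had an unadjusted p under 0.05 with the 8 libraries. Their log2 differences ran from -0.19 to 0.21, with a median of 0.00. By RT-qPCR, the paper reports differences between the genotypes for Notch2 and Hes1 in T2 and for Hes5 in T1.

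No gene of the neighbouring signaling lists was called. Of 21 genes of Toll-like receptor and NFκB signaling, 10 were above 0 (median -0.02), and 6 without KO replicate 1 (median -0.06). The lipopolysaccharide receptor Tlr4 was the highest, at 3.11 to 5.39 RPKM in WT and 4.16 to 6.43 in KO (0.28), and the NFκB subunit Rel the lowest, at 53.2 to 102 and 52.7 to 71.6 (-0.31). Of 18 NFκB response genes, 8 were above 0 (median -0.06), and without KO replicate 1 the direction turned, with 14 above 0 (median 0.09). The inhibitor Tnfaip3 was at 23.6 to 40.5 in WT, at 12.4 and 16.1 in the KO replicate 1 libraries and at 29.7 and 33.8 in the KO replicate 2 libraries, so that its difference was -0.55 with all libraries and 0.02 without KO replicate 1. The 9 genes of the BAFF pathway had a median of -0.03 (-0.05 without KO replicate 1), and the 25 of B-cell receptor signaling -0.02 (-0.05). The 12 tested survival and death genes of the BCL2 family had a median of -0.06 with 5 above 0, and 0.13 with 8 above 0 without KO replicate 1. The 12 MHC class II presentation genes had 11 below 0 (median -0.13), and 6 below 0 without KO replicate 1 (median 0.02). The 16 genes of positioning and adhesion had a median of -0.04 (-0.02 without KO replicate 1).

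Interferon response genes lay mostly above WT in KO, none of them past the test. Of 30 tested, 29 had a log2 difference above 0 (53.2% of all tested genes), with a median of 0.30. Of the 30, 16 had an unadjusted p under 0.05, all higher in KO (1.98% of all tested genes were so). For 9 of the 30 the KO libraries lay above the WT libraries in both stages (2.48% of all tested genes). Oas1a, a sensor of double-stranded RNA, was at 7.70 and 7.86 RPKM in WT T1, 6.36 and 5.96 in T2 of WT, 11.4 and 14.7 in KO T1, and 8.92 and 10.5 in KO T2. All KO libraries were above all WT libraries (log2 difference 0.65, SE 0.10, adjusted p = 0.437 from limma). Isg15, a ubiquitin-like modifier, was at 5.69, 6.28, 3.82 and 3.88 in WT and 8.76, 12.8, 5.40 and 7.81 in KO (0.73, SE 0.15, adjusted p = 0.843 from limma). Ifit1, which binds viral RNA, was at 1.22 to 2.59 and 2.95 to 3.54 (0.64). Irf7, a transcription factor that amplifies the response, was at 12.8 to 17.7 and 15.8 to 23.9 (0.34). At the other end, the RNA sensor Ddx58 was at 38.7 to 60.6 in WT and 34.6 to 67.6 in KO (0.01, and -0.0042 with median-ratio scaling), and Irf1 at 39.6 to 56.1 and 41.5 to 44.3 (-0.05).

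The interferon response genes were also above WT without the KO replicate 1 libraries. There 24 of 30 were above 0 (50.4% of all tested genes), the median was 0.26, and 11 had an unadjusted p under 0.05, again all higher in KO (2.1% of tested genes were higher and 2.14% lower in this way). The median was 0.41 in T1, with 29 above 0 (50.6% of all tested genes), and 0.22 in T2, with 28 above 0 (53.7%), and over all settings run the median stayed between 0.20 and 0.37. In the 8 libraries of MZ and FO B-cells, KO replicate 1 included, all 30 were above 0 (median 0.24). At an unadjusted p under 0.05, 0 genes of the list differed between transitional and mature B-cells. Only Irf1 of this list lies within 15 Mb of Mir146. Oas and Gbp genes have close copies, among which reads may be split.

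**Figure D4:**
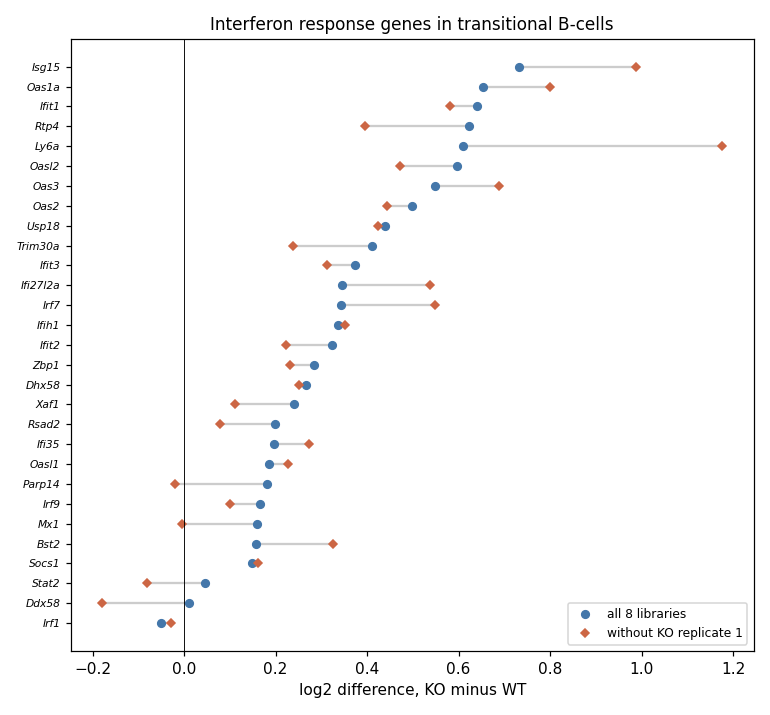
Log2 difference (KO minus WT) of 29 of the 30 interferon response genes, ordered by the value from all 8 libraries (circles), with the value without the KO replicate 1 libraries (diamonds) joined by a line. With 8 libraries 28 of those drawn lie above 0, and without KO replicate 1 24 do, and the medians over all 30 are 0.30 and 0.26.

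Interferon-inducible GTPases, which act against pathogens within cells, overlap with the window around Mir146, since 7 of the 14 tested lie in it. Of the 14, 12 were above 0 (median 0.38, with 53.2% of all tested genes above 0). An unadjusted p under 0.05 was found for 7, all higher in KO (1.98% of all tested genes were so). 9930111J21Rik2, which lies among such genes and was nearly lost in KO, is not in this list and does not enter these counts. The 7 in the window had a median of 0.40 with 5 above 0, and the 7 elsewhere a median of 0.32 with 7 above 0. Outside the window, Gbp6 was at 1.83, 2.07, 2.37 and 1.41 RPKM in WT and 4.13, 3.69, 4.67 and 2.8 in KO (0.83, SE 0.19). Iigp1 was at 0.0766 to 0.463 in WT, and at 1.72 and 1.39 in the KO replicate 1 libraries against 0.643 and 0.433 in the KO replicate 2 libraries (0.93). Igtp, in the window, was at 16.3 to 20.1 and 20.4 to 30.6 (0.43), and Ifi47, also there, went the other way, at 35.5 to 41.5 and 23.0 to 39.2 (-0.28). The median of the 13 tested was 0.10 without the KO replicate 1 libraries, with 10 above 0.

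Immediate early genes, which are transcribed within minutes of a stimulus or of handling, were below WT in the KO replicate 1 libraries. With all libraries, all 21 had a log2 difference below 0 (median -1.25), 1 of them at an unadjusted p under 0.05, and 0 were called. In the 8 libraries of MZ and FO B-cells, KO replicate 1 included, 0 of the 21 were above 0 (median -1.29). This median was not computed without KO replicate 1. Fos was at 1069 and 478 RPKM in WT T1 and 760 and 510 in T2 of WT. It was at 19.1 and 606 in KO T1 and at 159 and 590 in KO T2, so that in each stage the KO replicate 2 library lay between the WT libraries and KO replicate 1 far below. Jun was at 114 to 252 in WT, 8.03 and 37.1 in the KO replicate 1 libraries and 161 and 162 in the KO replicate 2 libraries. Atf3 was at 10.7 to 86.5 in WT, 0.135 and 1.47 in KO replicate 1, and 28.8 and 18.8 in KO replicate 2, and Fosb went the same way, with 1.17 and 65.4 against 289 and 269. Myc was at 17.5, 31.2, 58.4 and 68.4 in WT, and at 8.60 and 34.9 in KO replicate 1 against 29.7 and 79.0 in KO replicate 2.

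Without the KO replicate 1 libraries the median of the 21 immediate early genes was -0.16, with 6 above 0. The log2 difference of Fos went from -1.87 to -0.16, that of Jun from -1.54 to 0.05, that of Atf3 from -2.53 to -0.32 and that of Myc from -0.39 to 0.33. Heat shock genes, which encode chaperones, followed. Their median over 8 genes was -0.33 with all libraries and 0.47 without KO replicate 1, when all 8 were above 0. Hspa1b was at 10.1 to 30.6 RPKM in WT, 0.415 and 2.35 in the KO replicate 1 libraries and 27.1 and 64.5 in KO replicate 2 (-1.20, and 1.16 without KO replicate 1). Its near-identical copy Hspa1a went from -0.57 to 1.39. The part of handling, cell state and genotype in these values was not tested.

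**Figure D5:**
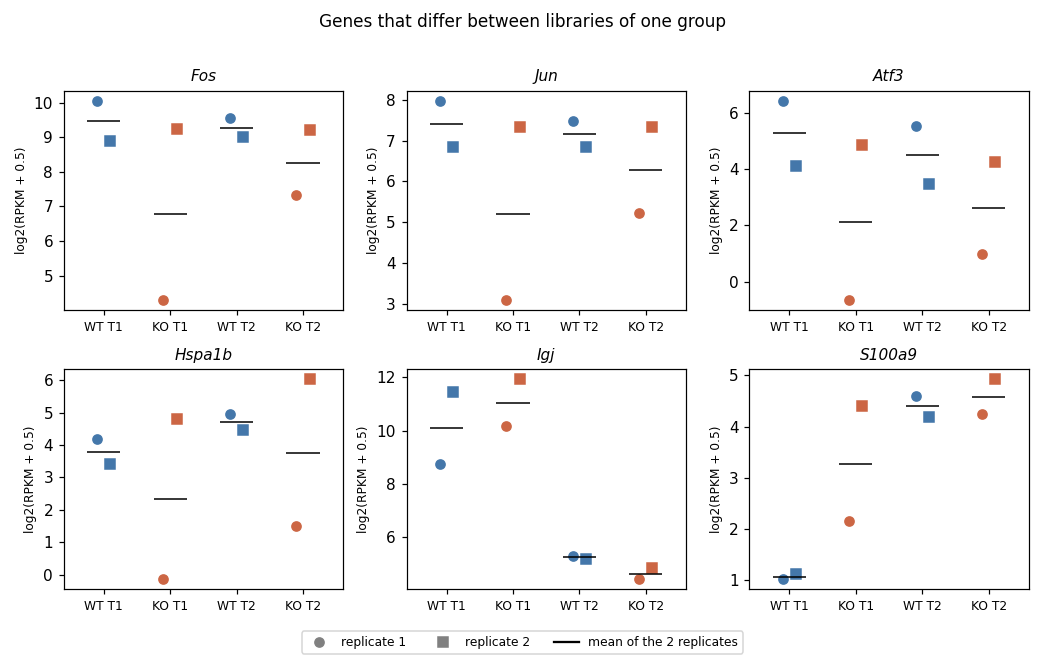
Level of 6 genes in each transitional library, as log2(RPKM + 0.5) on the vertical axis (scaled per gene), with WT in blue, KO in orange, circles for replicate 1, squares for replicate 2 and a line at the mean of the 2. Fos, Jun, Atf3 and Hspa1b are lowest in the KO replicate 1 library of each stage, Igj is highest in the T1 replicate 2 libraries of both genotypes, and S100a9 is higher in KO T1 replicate 2 than in the other T1 libraries.

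Markers of other cells overlapped between the genotypes and varied between libraries of a group. The 11 plasma cell markers summed to 357 to 3547 RPKM in WT and 269 to 4684 in KO, and the highest library of each genotype was T1 replicate 2. Igj, the joining chain of secreted antibodies, was at 428 and 2799 in WT T1 and 1148 and 3876 in KO T1, against 21.2 to 38.5 in T2. Derl3, a factor of protein disposal in secretory cells, was at 11.5 and 41.3 in WT T1 and 19.7 and 59.1 in KO T1 (log2 difference 0.37). Of the 11 markers, 9 were above 0 (median 0.23), and none was called. The median was 0.64 without KO replicate 1, and 0.19 when both T1 replicate 2 libraries were left out. Irf4, which directs plasma cell formation and is also induced by B-cell receptor signals, was at 208, 112, 152 and 110 in WT, 55.2 and 61.7 in KO replicate 1, and 121 and 117 in KO replicate 2 (-0.75, and -0.23 without KO replicate 1).

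The 17 myeloid markers summed to 23.7 to 125 RPKM in WT and 32.6 to 170 in KO. S100a9, a protein of neutrophils, was at 1.53 and 1.65 in WT T1 and 3.94 and 20.6 in KO T1, and at 23.8 and 17.7 in WT T2 and 18.5 and 29.8 in KO T2 (log2 difference 1.2). S100a8, its partner, gave 0.91. Of 15 tested myeloid markers 10 were above 0 (median 0.07, and 0.71 without the KO replicate 1 libraries). The 11 T cell markers summed to 10.7 to 30.8 in WT and 12.7 to 36.4 in KO (median 0.16, and 0.65 without KO replicate 1). The markers of NK cells (0.531 to 8.70 RPKM in WT and 1.18 to 10.7 in KO, median log2 difference 0.41 over 2 tested, and 0.87 over 4 without KO replicate 1), dendritic cells (0.956 to 3.49 and 0.829 to 3.24, with 0.29 and 0.67 for the 1 tested), erythroid cells (1.75 to 7.42 and 1.65 to 7.48, median 0.03 and 0.33 over 2) and platelets (0.202 to 0.382 and 0.214 to 0.847, none tested) summed to low values, and their part in the differences above was not tested. Cell cycle genes had 20 of 25 above 0 (median 0.15, and 0.64 with 26 of 26 above 0 without KO replicate 1), and endoplasmic reticulum chaperone and unfolded protein response genes 15 of 23 (median 0.07, and 0.20 with 18 above 0 without KO replicate 1). In both lists 0 were called.

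No marker of B-cell identity passed the test. The 7 B-cell identity genes had a median log2 difference of -0.02 (-0.15 without KO replicate 1) and the 5 MZ B-cell markers 0.11 (0.02). The 7 tested immature and transitional B-cell markers had a median of -0.13 with 5 below 0, and -0.23 with 7 below 0 without KO replicate 1. Of these, Cd93 went from -0.24 to -0.59. The 1 tested FO B-cell marker, Fcer2a, was at 0.04 (0.31 without KO replicate 1). Among the markers of B-1 cells, Bhlhe41, a transcription factor of that lineage, was at 26.3 and 22.7 RPKM in WT T1, 14.2 and 6.39 in T2 of WT, 7.25 and 18.8 in KO T1, and 5.11 and 4.43 in KO T2. KO was below WT in each stage (-0.98, SE 0.32, adjusted p = 1.00 from limma). The other 3 markers of that list were above 0, and the median over the 4 was 0.04 (0.55 without KO replicate 1).

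The effect of genotype was also compared between T1 and T2. For 0 of 11872 genes (0.0%) did the KO against WT difference itself differ between the stages at an adjusted p under 0.05 by limma, and 140 (1.18%) did at an unadjusted p. With no trend of the variance 1 gene did. In T1 alone 230 genes (1.94%) had an unadjusted p under 0.05, 1.24% higher and 0.699% lower in KO. In T2 alone 216 (1.82%) had one, 1.16% higher and 0.657% lower. Against the mature MZ and FO B-cells, the difference between the genotypes differed for 1 of 12507 genes (0.008%), while 139 (1.11%) did at an unadjusted p. The 1 gene was Grm6, a metabotropic glutamate receptor gene 7.48 Mb from Mir146. It was low in transitional B-cells and had its largest gap in MZ. Lyrm7 and 9930111J21Rik2 showed like differences in mature cells (2.34 and -5.43), and Tgtp1, Ccdc69, Gm2a and Zfp62 differed there by 1.95, 0.63, -0.56 and -0.36.

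Without the KO replicate 1 libraries 2 of 12057 genes (0.0166%) were called, 9930111J21Rik2 and Gm11942, a processed pseudogene whose values are given with the additional observations. In that fit 511 genes (4.24%) had an unadjusted p under 0.05. The KO replicate 2 libraries then stood alone for KO, and the spread of KO within a stage was assumed to be that of WT. Gm2a (-0.60), Zfp62 (-0.58), Ccdc69 (0.91), Anxa6 (0.54), Tgtp1 (1.28), Isg15 (0.99) and Oas1a (0.80) kept their direction in it, and none of these 7 passed.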

How the data were processed

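The deposited values are RPKM per gene. Per the labels and the study's methods, the authors removed reads of low quality, aligned the rest to mm10 (GRCm38) with TopHat, kept uniquely aligned reads and computed RPKM with replicates kept apart. No source used here gives the versions of these tools. The values cover 38355 genes, of which 15161 were at 0 in all libraries. Division by exon length and library size could be undone for each of the 23194 genes above 0, to within 0.01 of a whole read, for 13395 with the GENCODE M21 length, and 36602 genes have a position there. Intervals are for the log2 difference between the genotypes and rest on the spread between libraries.

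Here, log2(RPKM + 0.5) was fitted with limma 3.58.1 in R 4.3.3 on the 8 transitional libraries, with stage and genotype as terms and a trend of the variance (5 residual degrees of freedom). Python 3.11.15, numpy 2.4.6 and pandas 2.3.3 were also used. Genes with a group mean RPKM over 1 entered the test, with Benjamini-Hochberg adjustment over all of them. Calls needed an adjusted p under 0.05 and a log2 difference beyond 1. Fold changes understate low genes. p-values set a difference against the spread between these libraries, which are pools of mice, and not against the spread between single mice. T1 and T2 were also fitted with an interaction, and mature B-cells with all 16 libraries. The fits were tested on simulated data.

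The members and the 28 lists (354 genes, 351 deposited, 319 tested) were chosen with earlier results of these data known. Named genes are called genes, list members at the ends of each list, and targets and Notch genes, given in part. A few list members count in their lists and are not reported here by name or drawn. Genes near Mir146 that were not called, immunoglobulin segments, Igj, Gm11942, Tpm3-rs7 and the sort markers were added after their values were seen. Alternatives were pseudocounts of 0.1 and 1, no filter or a group mean over 5 RPKM, median-ratio scaling, quantile normalization, a replicate block (fixed or random), all 16 libraries, no variance trend, limma-voom on recovered reads, 8mer sites only and leaving out libraries. Leaving out both T1 replicate 2 libraries was chosen after seeing the data.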

Additional observations from a re-analysis of the deposited data

Results flagged for a closer look

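Grm6 was the 1 gene whose KO against WT difference differed between transitional and mature B-cells by the test of that difference. The log2 difference was lower in transitional than in mature B-cells by 2.13 (transitional minus mature -2.13, SE 0.25, adjusted p = 0.0482 from limma). Its RPKM was 0.0441 and 0.0398 in WT T1, 0.116 and 0.217 in KO T1, 0.123 and 0.311 in WT T2, and 0.599 and 1.02 in KO T2. In mature cells it was 1.18 and 1.80 in MZ of WT against 29.3 and 28.9 in MZ of KO, and 0.720 and 1.05 in FO of WT against 4.0 and 2.90 in FO of KO. KO was above WT in each of the 4 subsets, with at most 78 reads in a transitional library, and the group means of T1 and T2 were under the filter of 1 RPKM. The call was lost at a pseudocount of 0.1, with a group mean over 5 RPKM, with limma-voom and without most single libraries.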

How the results depend on the processing

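With 2 genes called, most counts moved by more than 1.5 times under some setting. With and without the fold criterion the count was 1 with no filter on low values, with a group mean over 5 RPKM and with the replicate block, and 1 to 4 when 1 library or both libraries of a genotype and number were left out. It was 7 with and 9 without the fold criterion when all 16 libraries were fitted. In T1 the count of 1 became 4 with no filter, 3 with quantile normalization, 2 with the replicate block, 5 with all 16 libraries and 3 with no variance trend, and ran from 1 to 2 when libraries were left out. In T2 the count of 1 became 11, 6 and 7 with no filter, all 16 libraries and no variance trend. The difference between T1 and T2 gave 1 gene with no variance trend. That between transitional and mature B-cells gave 0 at a pseudocount of 0.1, with a group mean over 5 RPKM and with limma-voom, 26 with no filter, 3 with no variance trend, and 0 to 2 without single libraries. The cause of these moves was not tested.

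Lyrm7 accounted for most of the change between 1 and 2. Leaving out any library but WT T1 replicate 2 ended its call, and without KO T1 replicate 1, or both KO replicate 1 libraries, Gm11942 was called. Leaving out the KO replicate 2 libraries gave 9930111J21Rik2, Tpm3-rs7, Hspa1b and Ighg1. Leaving out both T1 replicate 2 libraries gave 1. Same-numbered samples deviated together within KO (r = 0.405 over genes between T1 and T2), between KO and WT in T1 (0.303) and T2 (0.162) and within WT (0.130), but not over 0.1 between KO T1 and WT T2 (0.094) or KO T2 and WT T1 (0.0561). As not every pair passed 0.1, the numbers were not taken as pairs, and the main fit took the libraries as independent. Pairs across genotypes do not bear on a pool shared by T1 and T2 of the same genotype. With the replicate block, Lyrm7 was lost (adjusted p = 0.0836 from limma), while an unadjusted p under 0.05 was found for 590 genes. A random block of genotype and number gave a correlation within blocks of 0.376. Both calls stayed with it, that of Lyrm7 at an adjusted p of 0.0453 from limma. In that fit 194 genes (1.63%) had an unadjusted p under 0.05, against 387 (3.26%) in the main fit. The counts at an unadjusted p and the intervals given above are from the main fit unless another is named.

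Differences near 0 changed sign. Numb was at -0.010 with median-ratio scaling, -0.014 with quantile normalization and -0.0048 with limma-voom, and Ddx58 at -0.0042 with median-ratio scaling. Over the fits that left out libraries, log2 differences that changed sign ran over these ranges: Tgtp2 -0.69 to 0.17, Traf6 -0.16 to 0.12, Irak2 -0.20 to 0.044, Numb -0.059 to 0.065, Notch2 -0.050 to 0.10, Smad4 -0.19 to 0.14, Hes1 -0.45 to 0.080, Hes5 -0.055 to 0.40, Dtx1 -0.17 to 0.58, Irf1 -0.19 to 0.092, Ddx58 -0.18 to 0.20, Jun -3.12 to 0.052, Myc -1.12 to 0.33, Hspa1b -3.56 to 1.16, Hspa1a -2.52 to 1.39, Tnfaip3 -1.12 to 0.022, Derl3 -0.19 to 0.92, Cd93 -0.59 to 0.10, Fcer2a -0.22 to 0.31, Cr2 -0.0080 to 0.34, Igj -0.52 to 0.83, Tpm3-rs7 -0.33 to 3.98. The interferon response, interferon-inducible GTPase and immediate early lists kept the sign of their median in all settings. Platelet markers had no tested member, and Iigp1 was not tested without KO replicate 1. With 9003343 to 14443131 reads per library, genes under 1 RPKM rest on few reads.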

Other observations

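Some immunoglobulin segments had higher values in both KO than in both WT libraries of T1 B-cells. They were picked after their values were seen. Igkv5-39, a segment of the kappa light chain, was at 213 and 819 RPKM in WT T1 and 2585 and 5879 in KO T1, and at 93.3 and 82.9 in WT T2 and 173 and 295 in KO T2. Ighv5-12, a heavy chain segment, was at 53.3 and 71.7 in WT T1 and 237 and 368 in KO T1, against 10.1 to 14.1 in T2, and Igkv4-55 at 159 and 153 in WT T1 and 566 and 944 in KO T1. In T1 alone the log2 differences were 3.22 for Igkv5-39, 2.25 for Ighv5-12 and 2.23 for Igkv4-55, none past the test (adjusted p = 1.00, 0.277 and 0.294 from limma). Ighv5-12 and Igkv4-55 were called in T1 with quantile normalization and with all 16 libraries, and Ighv5-12 also with the replicate block. Over both stages they were 2.29, 1.24 and 1.02, and without the T1 replicate 2 libraries 2.11, 0.87 and 0.49, in the same order. Each library is a pool of mice, and within each genotype the T1 library with more plasma cell transcripts (replicate 2) was higher in Igkv5-39. Ighg1, which encodes the constant region of IgG1, was at 8.00 and 5.04 in the KO replicate 1 libraries, 1.71 and 0.584 in KO replicate 2, and at most 0.295 in WT.

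A pair of genes marked the KO replicates rather than the genotype. Gm11942 was at 68.2 RPKM in KO T1 replicate 2, 90.9 in KO T2 replicate 2, 204 in KO MZ replicate 2 and 115 in KO FO replicate 2. In the KO replicate 1 libraries, T1 was at 0, T2 at 26.8, MZ at 0.644 and FO at 1.04, and in WT it was at most 1.84. Tpm3-rs7 was at 36.7 (T1), 17.7 (T2), 21.1 (MZ) and 31.8 (FO) for KO replicate 1, at 0.592 to 1.08 in KO replicate 2, and at 0.702 to 1.30 in WT. In both genes KO T2 replicate 1 was the library between the levels of the other KO replicates. Whether that library holds cells of both KO pools was not tested.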
